A study of Ovis aries with 6 samples.

Results

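Macrophages of the sheep ovary were taken as the barcodes that held messenger RNA of complement C1q, the first component of the classical complement cascade, which macrophages make in large amounts. Of 38465 barcodes with at least 1000 unique molecular identifiers (UMI, 1 for each captured RNA molecule) and at most 10% of them in mitochondrial genes, 521 were kept. Each had at least 5 UMI of C1QA, C1QB and C1QC together, at least 3 times as many as of PECAM1, KDR, CD3E, CD3G and FST together, and at least 1 UMI of TYROBP or AIF1. PECAM1 and KDR mark endothelium, CD3E and CD3G mark T cells, FST marks granulosa cells, and TYROBP and AIF1 are carried by myeloid cells. The rule read expression, so every level of the macrophages against other cells below describes what was chosen and was given no test.

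The cells came from 1 ovary of each of 6 Hu sheep ewes in oestrus, each ovary digested as a whole and run as 1 library of droplet-based 3′ single-cell RNA sequencing. The HLS group was 3 ewes with litters of 3 or more lambs, and the LLS group was 3 ewes with litters of fewer than 2. No treatment separated the groups, and no genotype at a fecundity locus is stated in the labels. The 6 libraries held between 43329214 and 75549906 UMI over 52290 deposited barcodes. Throughout, 3 values in a row are those of replicates 1, 2 and 3 of a group, and a level is the UMI of a gene per 10000 UMI of the summed cells of one ewe.

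Macrophages of the ovary sit in the stroma, around follicles and in the corpus luteum, where they clear dying cells and take part in follicle rupture and in the regression of luteal tissue. They depend on the receptor for colony stimulating factor 1 (CSF1R). Engulfed material is broken down in lysosomes, its lipid and iron are stored or exported, and fragments of its protein are shown to T cells on MHC class II. Long-lived tissue macrophages commonly carry scavenger and endocytic receptors such as MRC1, FOLR2 and LYVE1.

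The ewes gave 35, 63 and 107 macrophages in HLS and 161, 114 and 41 in LLS, 205 and 316 in all. As a share of the barcodes that passed the filters, macrophages made up 0.619, 0.852 and 1.84% in HLS and 2.44, 2.10 and 0.543% in LLS ewes. The 95% Wilson intervals, which cover counting error only, ran from 0.445% to 0.860%, 0.666% to 1.09% and 1.52% to 2.21% in HLS and from 2.09% to 2.84%, 1.75% to 2.52% and 0.400% to 0.736% in LLS ewes. HLS replicate 3 stood among the LLS values and LLS replicate 3 was the lowest of all, so that the groups overlapped. The mean share was 1.10% ± 0.646 in HLS and 1.69% ± 1.01 in LLS ewes (SD, n = 3 each), a difference of -0.591 percentage points with a two-sided exact permutation p of 0.5. With 3 ewes against 3 the smallest p that this test can give is 0.1. The plot of shares by ewe shows the same order.

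**Figure D1:**
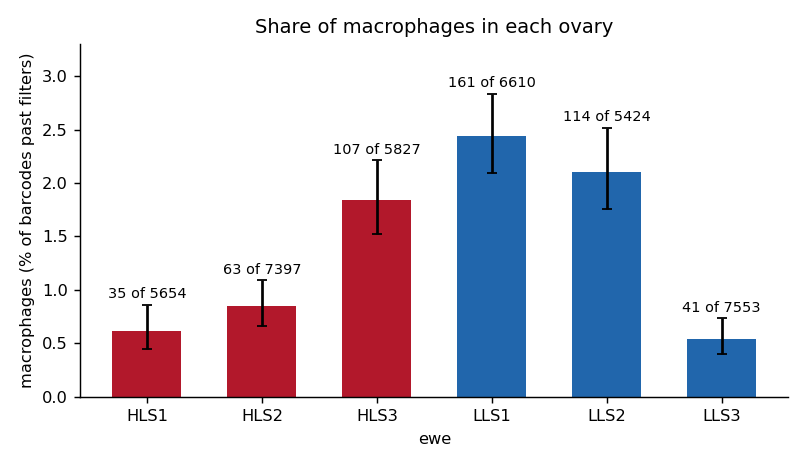
Share of macrophages by ewe, in percent of the barcodes that passed the filters, as bars with 95% Wilson intervals and the number of cells above each. LLS replicates 1 and 2 (2.44% and 2.10%) are the highest and LLS replicate 3 (0.543%) is the lowest, so that the LLS ewes span the HLS range.

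C1q counts lay far above the limit in most macrophages. The median C1q count of a macrophage was 88, 60 and 59 in HLS and 45, 31.5 and 32 in LLS ewes. Only 15 of the macrophages held 5 or 6 C1q UMI, and 14 barcodes that met the rest of the rule held 3 or 4. Just inside the limit the level of C1QA was 5.77 per 10000 UMI over all ewes, and just outside it was 5.16. MGP and RGS5, genes of stromal and perivascular cells, stood at 60.4 and 35.8 just outside and at 1.37 and 0.152 just inside. Of 619 barcodes with at least 5 C1q UMI, 94 failed the ratio and 4 lacked both TYROBP and AIF1. The barcodes that failed the ratio held PECAM1 at 14.0 against 4.53 ± 1.97 in the macrophages (mean ± SD over 6 ewes), and C1QA at 6.60 against 24.2 ± 3.84. PECAM1 is also made by myeloid cells, so the ratio may have removed myeloid barcodes as well as mixed ones.

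Depth differed between macrophages and other barcodes, in either direction by ewe. The macrophages' median UMI count was 10765, 7239 and 11139 in HLS and 6987, 7264 and 5712 in LLS ewes, and that of the others was 7468, 8019.5 and 6802 in HLS and 10106, 5301 and 5814 in LLS ewes. The median percentage of UMI in ribosomal protein genes was lower in macrophages of every ewe, at 16.3, 10.6 and 12.2 in HLS and 11.2, 10.4 and 11.8 in LLS ewes, against 22.7, 17.1 and 17.3 in HLS and 17.6, 14.6 and 15.7 in LLS ewes for the other barcodes. Doublets were not removed. A caller based on simulated doublets marked 2007 barcodes, of which 21 were macrophages. The same barcode sequence was present in more than 1 library 297 times, with at most 28 shared by any 2 libraries.

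The name was checked against myeloid genes that the rule did not use. Of 20 such genes in the counts, 19 were above their level in the other barcodes in all 6 ewes, and their summed level was 49.8, 58.8 and 58.2 in HLS and 66.5, 50.9 and 59.3 in LLS ewes, against 5.45 in the other barcodes. CSF1R, the receptor on which macrophages depend, stood at 1.24, 2.30 and 2.82 in HLS and 4.75, 2.20 and 3.39 in LLS ewes against a mean of 0.0282 in the others. CD68, a protein of the lysosomal membrane, stood at 9.17, 8.07 and 11.6 in HLS and 7.88, 8.18 and 6.34 in LLS ewes against 0.213, and the values of the 6 ewes lay close together. FCER1G, the signal chain of Fc receptors, was the most abundant of these genes at 8.53 ± 1.03 (SD, n = 6), and SPI1, the transcription factor that sets myeloid fate, was at 1.92 ± 0.226. After each cell was thinned to 1000 UMI, CSF1R was found in 29.8% of macrophages and 0.0221% of endothelial barcodes, and CD68 in 44.1% and 1.73%. The endothelial barcodes were chosen with at least 5 UMI of PECAM1 and KDR together and none of C1q, TYROBP or AIF1. That choice removed barcodes with myeloid RNA, so this contrast describes the chosen sets and is no independent check of the name.

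The 20 genes with the largest ratio to the other barcodes, among those at 5 or more per 10000 UMI in every ewe, ran from CFD at 98.4 times to PSAP at 8.32 times. CFD, the serine protease factor D of the alternative complement pathway, stood at 38.6, 9.86 and 30.7 in HLS and 36.5, 22.9 and 26.1 in LLS ewes against 0.279 in the others, and HLS replicate 2 was the lowest of the 6. Next to it stood DQA and CD74 of the MHC class II pathway, FCER1G, CD68, the cathepsins CTSS, CTSZ, CTSD, CTSB and CTSC, and CXCL8, a chemokine for neutrophils. The rest were LGALS3 (galectin 3), FABP5 (a carrier of fatty acids), SCPEP1 (a lysosomal peptidase), LAPTM5 (a lysosomal membrane protein of blood cells), FTH1 (the ferritin heavy chain), HMOX1 (haem oxygenase 1), GRN (progranulin) and S100A4 (a calcium-binding protein). The plot of these genes sets the 6 macrophage values of each beside the range of the other barcodes.

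**Figure D2:**
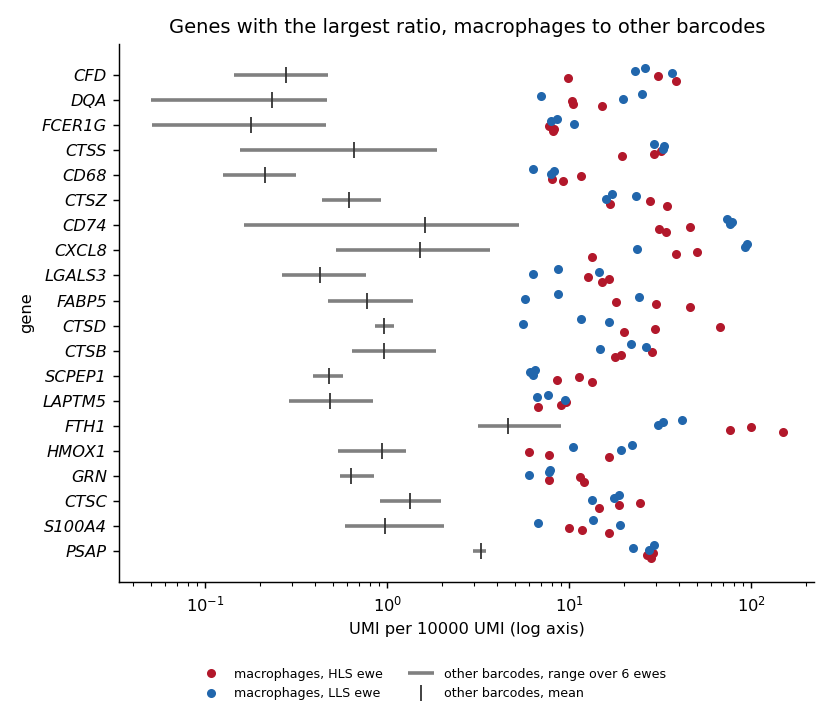
Level of the 20 genes with the largest ratio, in UMI per 10000 UMI on a log axis, with a point for the summed macrophages of each ewe and a grey line and tick for the range and mean of the other barcodes over the 6 ewes. The points of every gene lie to the right of the grey line, from 98.4 times the mean of the others for CFD to 8.32 times for PSAP.

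Genes of other ovarian cells were low in the macrophages but not absent. Stromal genes (DCN, LUM, COL1A1, COL1A2, COL3A1, PDGFRA, TCF21 and MGP) summed to 4.05, 5.46 and 12.6 in HLS and 9.65, 14.8 and 3.03 in LLS ewes, against 72.1 in the other barcodes, with COL1A1 the most abundant and the highest sums in HLS replicate 3 and LLS replicates 1 and 2. Endothelial genes summed to 2.93, 7.78 and 7.37 in HLS and 4.21, 5.43 and 5.98 in LLS ewes against 24.3, and most of that was PECAM1. KDR, CDH5 and VWF, which endothelium makes and myeloid cells do not, stood at mean levels of 0.160 ± 0.0702, 0.0681 ± 0.0448 and 0.218 ± 0.0982. The rule limited PECAM1, KDR, CD3E, CD3G and FST against C1q, so the levels of these genes were held down by the choice of cells. CDH5 and VWF were not in the rule. Granulosa genes summed to 0.508, 0.807 and 5.03 in HLS and 0.319, 0.524 and 0.620 in LLS ewes against 20.2, HLS replicate 3 standing apart through GSTA1, a glutathione transferase. FSHR, the receptor for follicle stimulating hormone, was at or near 0 in every ewe. T cell genes summed to at most 1.28, with a mean of 0.668 against 0.486 in the other barcodes. B cell genes summed to at most 0.328, with a mean of 0.212 against 0.192, so neither mean was below that of the other barcodes. CD3E, CD79B and MS4A1 were at or near 0. The parts that RNA of other cells took in the results below were not tested, except where a value without it is given.

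Macrophages also differed from the 624 other myeloid barcodes, which held at least 3 UMI of TYROBP and AIF1, under 5 of C1q and 0 of CD3E and CD3G. Summed over the ewes, lysosome genes stood at 69.4 per 10000 UMI in these barcodes and at a mean of 202 in macrophages. FOLR2, a folate receptor of tissue macrophages, stood at 0.0513 and 2.26 ± 0.787, SELENOP, a selenium transport protein, at 1.64 and 14.7 ± 6.07, and GPNMB, a lysosomal glycoprotein, at 0.215 and 5.37 ± 4.03. In the other direction stood THBS1, a matrix glycoprotein of monocytes and platelets, at 13.001 and 1.33 ± 1.01, VCAN, a proteoglycan of monocytes, at 6.29 and 1.16 ± 0.883, and LAMP3, a gene of mature dendritic cells, at 0.657 and 0.0186 ± 0.0221. MHC class II was shared, with CD74 at 62.2 and 56.5 ± 22.0, and so was CXCL8, at 65.1 and 52.1 ± 34.4. The 1394 lymphocyte barcodes, chosen by CD3E and CD3G, held CD74 at 2.10 and lysosome genes at 11.4.

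Macrophages of high and low litter size were then compared, the question being which of their genes followed the litter group. UMI were summed over the macrophages of each ewe, so that the ewe was the replicate, and tested by edgeR's quasi-likelihood test with Benjamini-Hochberg adjustment. Of 7262 genes tested, 1 was higher in HLS at an adjusted p under 0.05, which is 0.0138% of those tested, and 0 were lower. At an unadjusted p under 0.05 there were 306 genes higher (4.21%) and 277 lower (3.81%), and DESeq2 called 20 higher and 4 lower. Without regard to p, all HLS ewes lay above all LLS ewes in 7.09% of the genes tested and below them in 7.05%, and the counts of single gene groups below stand beside those shares. The median log2 fold change over all genes was 0.00057.

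The gene that rose in HLS was FABP4, a fatty acid carrier of fat cells, of some capillary endothelium and of lipid-laden macrophages. FABP4 stood at 8.14, 14.7 and 2.16 per 10000 UMI in HLS and at 0.0168, 0.114 and 0 in LLS ewes. Every HLS ewe lay above every LLS ewe, and the log2 fold change was 7.32 (SE 0.861, adjusted p = 0.0164). In UMI, HLS macrophages held 480, 966 and 278 and those of LLS ewes 2, 10 and 0, where the count of 0 came from 41 cells. The gene was present in 7, 8 and 18 cells of the HLS ewes, 33 of 205 in all, and in 1, 1 and 0 cells of the LLS ewes, 2 of 316 in all. In the other barcodes it stood at a mean of 0.0200 in HLS and of 0.0270 in LLS ewes. The call was lost without HLS replicate 1 (adjusted p = 0.0607), without LLS replicate 1 (0.105) and without LLS replicate 3 (0.150).

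Within an ewe FABP4 was concentrated in few cells. A single macrophage held 83.3, 81.3 and 30.2% of the FABP4 UMI of the HLS ewes, with 400, 785 and 84 UMI in the highest cell and 47, 104 and 60 in the next. Without that cell in each ewe the level stood at 1.55, 3.04 and 1.54 in HLS ewes. In LLS replicates 1 and 2 that cell was the 1 cell with the gene, so nothing was left there to compare. Macrophages with FABP4 were deeper than those without it, with a median of 36291, 25982 and 17535 UMI against 8705, 6754 and 9899, and their median C1q count was 142, 110.5 and 160.5 UMI against 72, 57 and 51. Per 10000 UMI, C1QA stood at 19.8, 15.1 and 32.3 with FABP4 and 32.4, 29.7 and 29.2 without it, lower beside FABP4 in replicates 1 and 2 and higher in replicate 3. After thinning to 1000 UMI, 1, 5 and 11 HLS macrophages still held the gene. The plot of FABP4 by cell shows each macrophage by its depth.

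**Figure D3:**
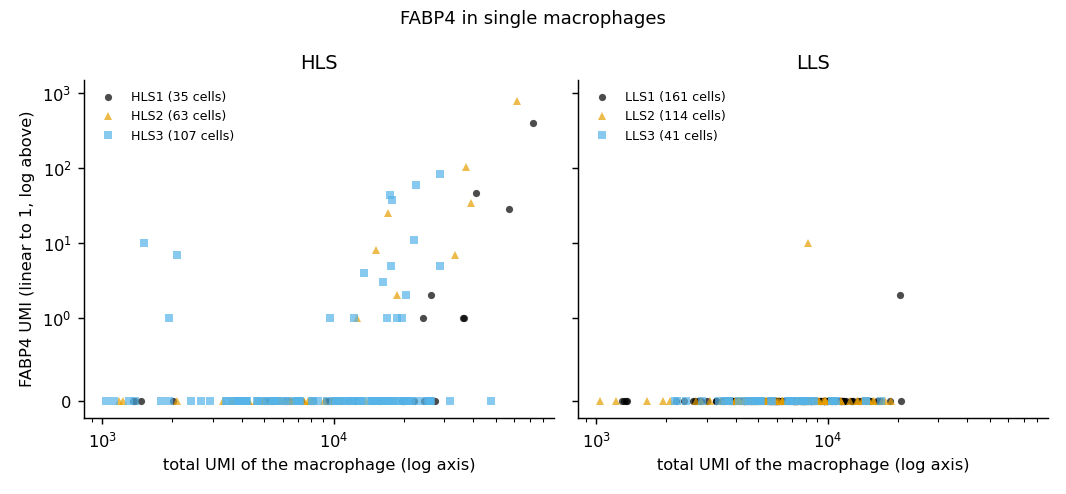
FABP4 UMI of each macrophage (linear to 1, log above) against its total UMI (log axis), in a panel for each group with a colour and shape per ewe. HLS cells with the gene come from all 3 ewes, with single cells at 400 UMI in replicate 1 and 785 in replicate 2, and in LLS ewes 2 cells hold it.

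Cells with FABP4 also differed in other genes of lipid and lysosome, given here as a description because the cells were picked by FABP4. FABP5, a second carrier of fatty acids, stood at 77.4, 75.2 and 46.6 per 10000 UMI in HLS macrophages with FABP4 and at 14.5, 4.97 and 9.75 in those without. CTSD, the lysosomal protease cathepsin D, stood at 30.1, 69.5 and 105 and 10.1, 7.55 and 56.3, and PPARG, the nuclear receptor that drives FABP4 in fat cells, at 0.579, 2.003 and 0.624 and 0.438, 0.213 and 0.250. Each of the 3 genes was higher beside FABP4 in all 3 ewes. With the cell of the most FABP4 in each ewe left out, FABP5 stood at 55.9, 39.3 and 41.4 in the others with FABP4, CTSD at 33.6, 66.3 and 102 and PPARG at 0.498, 1.21 and 0.616, so that the single cell of replicate 2 carried much of its FABP5 and PPARG. CD74, the invariant chain of MHC class II, went the other way at 17.1, 13.2 and 23.3 and 50.8, 41.1 and 52.1, and CSF1R stood at 0.681, 0.554 and 2.39 and 1.79, 3.27 and 2.94. CD68 stood at 11.04, 10.1 and 16.6 and 7.32, 6.94 and 10.1, so that both sets of cells carried this lysosomal marker. After thinning of each cell to 1000 UMI, FABP5 was present in 84.8% of the 33 cells with FABP4 and in 31.4% of the 172 without, CTSD in 90.9% and 42.4%, and CD74 in 75.8% and 85.5%.

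The genes with the next lowest p did not pass the test and are given as values. ALDH1A1, an enzyme that makes retinoic acid, stood at 2.22, 2.37 and 2.61 in HLS and 0.764, 0.501 and 0.656 in LLS ewes, with a log2 fold change of 1.96 (SE 0.279, adjusted p = 0.0556) in the same edgeR fit. AP1S1, a subunit of the adaptor of clathrin vesicles, stood at 3.10, 2.33 and 1.06 in HLS and 0.285, 0.422 and 0.474 in LLS ewes (log2 fold change 2.58, SE 0.448, adjusted p = 0.0965), and PLA2G15, a lysosomal phospholipase, at 0.458, 0.791 and 0.341 in HLS and 0.0924, 0.103 and 0.146 in LLS ewes (log2 fold change 2.32, SE 0.407, adjusted p = 0.0965). In each of these genes all HLS ewes lay above all LLS ewes. HLS cells without FABP4 held AP1S1 at 1.08, 0.497 and 0.539 and PLA2G15 at 0.236, 0.0710 and 0.270, and those with FABP4 held AP1S1 at 5.15, 5.62 and 2.88 and PLA2G15 at 0.681, 2.09 and 0.590, higher beside FABP4 in all 3 ewes. With the cell of the most FABP4 in each ewe left out, the others with FABP4 held AP1S1 at 3.44, 2.54 and 2.43 and PLA2G15 at 0.679, 0.866 and 0.539. ACTA2, the smooth muscle actin, stood at 0.763, 1.28 and 1.99 in HLS and 0.327, 0.228 and 0.328 in LLS ewes (log2 fold change 2.26, SE 0.357, adjusted p = 0.0757), but 1 macrophage held 77.8, 84.5 and 65.0% of its UMI in the HLS ewes, and perivascular genes summed to 1.58, 2.79 and 4.599 in HLS and 0.798, 1.28 and 1.06 in LLS ewes. Without called doublets the ACTA2 fold change was 0.33 (adjusted p = 0.849), and without macrophages that held a stromal UMI after thinning, an alternative chosen after seeing the data, it was 0.27 (adjusted p = 0.879).

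Among genes with lower values in HLS, LYVE1, a receptor for hyaluronan, stood at 0.169, 0.472 and 0.388 in HLS and 1.20, 0.729 and 1.20 in LLS ewes, with a log2 fold change of -1.55 (SE 0.335, adjusted p = 0.166). FBXO30, a part of a ubiquitin ligase, stood at 0.203, 0.426 and 0.543 in HLS and 1.37, 1.003 and 1.42 in LLS ewes (log2 fold change -1.61, SE 0.321, adjusted p = 0.124), STXBP6, a syntaxin-binding protein, at 0.0678, 0.0761 and 0.124 in HLS and 0.369, 0.308 and 0.437 in LLS ewes (log2 fold change -1.88, SE 0.378, adjusted p = 0.124), and KCNE3, a subunit of potassium channels, at 0.0678, 0.0609 and 0.0776 in HLS and 0.294, 0.228 and 0.547 in LLS ewes (log2 fold change -2.15, SE 0.452, adjusted p = 0.146). PODXL, a sialomucin of endothelium and podocytes, stood at 0.0508, 0.0609 and 0.0543 in HLS and 0.277, 0.228 and 0.182 in LLS ewes (log2 fold change -2.04, SE 0.404, adjusted p = 0.124), beside a mean of 2.45 in the other barcodes. All HLS ewes lay below all LLS ewes in each of these genes, and none passed the adjusted threshold.

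Lysosomal genes, which break down what the cell takes up, were abundant in macrophages of every ewe. Their summed level was 199, 197 and 287 in HLS and 150.4, 195 and 182 in LLS ewes, against 17.1 in the other barcodes, and 24 of 25 genes were above the other barcodes in all 6 ewes. CTSS, a protease that also trims the invariant chain for antigen presentation, stood at 19.5, 29.2 and 31.7 in HLS and 32.7, 33.2 and 29.3 in LLS ewes, with the groups overlapping. CTSB and CTSC, other cathepsins, stood at 21.4 ± 5.24 and 17.9 ± 3.96 (mean ± SD, n = 6), and PSAP, the precursor of the saposins that help to break down sphingolipids, at 27.0 ± 2.46. CTSD stood at 20.001, 29.7 and 67.2 in HLS and 5.58, 16.4 and 11.5 in LLS ewes, so that each HLS ewe lay above each LLS ewe, and LGMN, the asparagine-cutting protease legumain, at 13.2, 12.8 and 18.9 in HLS and 2.97, 8.65 and 9.59 in LLS ewes. The log2 fold changes were 1.81 (SE 0.492, adjusted p = 0.380) for CTSD and 1.13 (SE 0.420, adjusted p = 0.556) for LGMN. All HLS ewes lay above all LLS ewes in 4 of 24 lysosomal genes tested and below them in 0, none passed the adjusted threshold, and the median log2 fold change was 0.31.

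Genes of lipid handling summed to 152, 104 and 131 in HLS and 86.1, 117 and 62.1 in LLS ewes, against 21.1 in the other barcodes. FABP5 was the most abundant at 45.8, 30.05 and 18.0 in HLS and 5.70, 24.2 and 8.601 in LLS ewes, with LLS replicate 2 inside the HLS range. TREM2, a receptor for lipid and dying cells, stood at 2.90, 1.29 and 2.59 in HLS and 3.21, 1.77 and 1.35 in LLS ewes, and LIPA, the lysosomal acid lipase, at 7.14, 7.69 and 9.96 in HLS and 6.91, 5.64 and 4.08 in LLS ewes, where the lowest HLS value lay just above the highest LLS value. PLIN2, which coats lipid droplets, stood at 7.22, 4.89 and 5.80 in HLS and 2.01, 2.88 and 2.99 in LLS ewes, with a log2 fold change of 1.26 (SE 0.322, adjusted p = 0.331). APOE, the apolipoprotein that carries cholesterol out of cells, was uneven at 25.3, 2.56 and 25.6 in HLS and 2.18, 20.5 and 6.998 in LLS ewes, and 1 cell held 85.8% of its UMI in LLS replicate 1. Of 17 genes tested, 3 (FABP4, PLIN2 and LIPA) lay above in all HLS ewes, 1 passed the test, and the median log2 fold change was 0.41.

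Iron and haem genes summed to 215, 99.5 and 141 in HLS and 63.8, 66.6 and 86.9 in LLS ewes against 12.2 in the other barcodes, with ferritin the largest portion in each ewe. FTH1, the ferritin heavy chain that stores iron, stood at 149, 76.2 and 99.7 in HLS and 30.7, 32.7 and 41.4 in LLS ewes, and its log2 fold change was 1.73 (SE 0.389, adjusted p = 0.211). Each HLS ewe lay above each LLS ewe. In the other barcodes FTH1 stood at a mean of 5.598 in HLS and 3.59 in LLS ewes. FTL, the ferritin light chain, stood at 40.7, 5.13 and 24.3 in HLS and 5.58, 15.1 and 15.5 in LLS ewes, with HLS replicate 2 the lowest of all. HMOX1, which frees iron from haem, stood at 16.4, 7.70 and 5.99 in HLS and 19.2, 10.5 and 22.1 in LLS ewes, and SLC40A1, the iron exporter ferroportin, at 1.39, 0.913 and 1.56 in HLS and 1.48, 2.03 and 0.948 in LLS ewes, both with the groups overlapping. Of 12 genes tested, 2 (FTH1 and SLC11A1, an iron transporter of the phagosome) lay above in all HLS ewes and 0 lay below.

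Antigen presentation on MHC class II stood lower in the HLS macrophages without passing the test. The 6 measured genes summed to 77.9, 56.7 and 79.3 in HLS and 132, 112 and 137 in LLS ewes, so that every HLS ewe lay below every LLS ewe, against 1.35 in HLS and 3.58 in LLS ewes in the other barcodes (means), which were thus lower in HLS as well. CD74 stood at 34.0, 31.1 and 45.7 in HLS and 76.5, 78.5 and 73.2 in LLS ewes, with a log2 fold change of -0.99 (SE 0.310, adjusted p = 0.456). CIITA, the coactivator that switches on class II genes, stood at 0.102, 0.0304 and 0.0853 in HLS and 0.311, 0.137 and 0.437 in LLS ewes (log2 fold change -1.80, SE 0.542, adjusted p = 0.445). DRA and DQA, chains of the presenting molecules themselves, stood at 27.6, 14.4 and 22.6 in HLS and 35.0, 25.9 and 37.2 in LLS ewes and at 15.1, 10.5 and 10.4 in HLS and 19.7, 6.998 and 25.1 in LLS ewes, and in both the groups overlapped. Of 5 genes tested, 2 lay below in all HLS ewes. Class II genes are a family of close copies, and the counting may have split their reads.

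**Figure D4:**
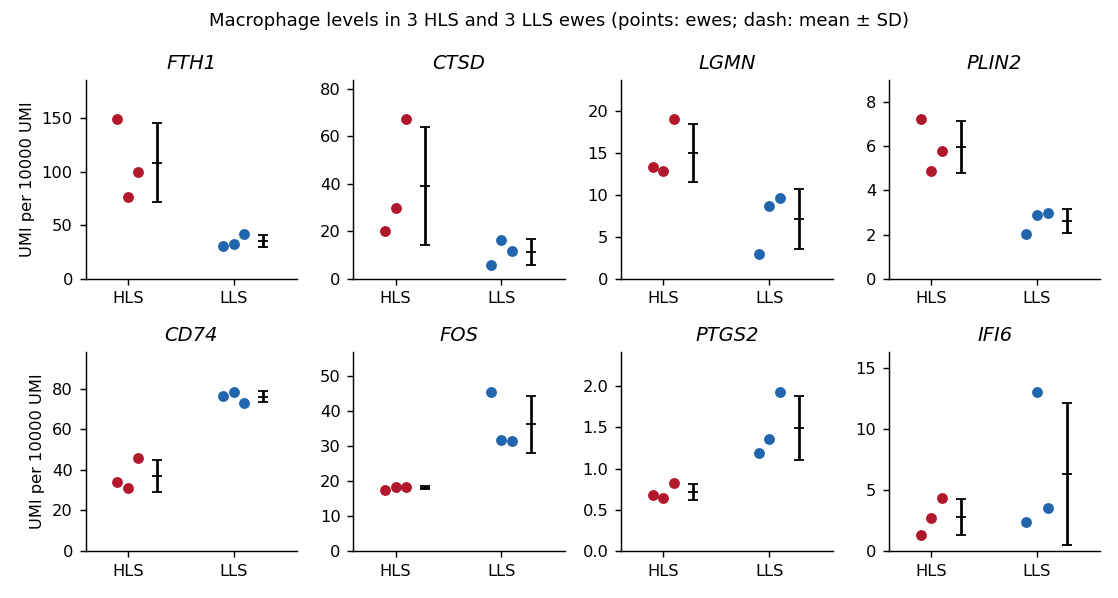
Levels of 8 genes in the summed macrophages of each ewe, in UMI per 10000 UMI on axes that start at 0, with a point per ewe and a dash and bar for the mean ± SD of each group. FTH1, CTSD, LGMN and PLIN2 lie above and CD74, FOS and PTGS2 below in all 3 HLS ewes, IFI6 is set apart by LLS replicate 2, and none of the 8 passed the adjusted threshold.

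Complement genes outside the rule summed to 47.9, 25.2 and 43.0 in HLS and 51.1, 33.4 and 35.6 in LLS ewes, with CFD the most abundant. CFP, properdin, which steadies the alternative pathway convertase, stood at 1.27 ± 0.267 (SD, n = 6), and C5AR1 and C3AR1, the receptors for the fragments C5a and C3a, at 4.13 ± 1.77 and 0.428 ± 0.0865. C6 was listed at 0 in every ewe, and C5, C7, CFB and CFI were near 0. Receptors for antibody and for microbes summed to 14.1, 20.3 and 23.3 in HLS and 23.8, 20.9 and 24.97 in LLS ewes against 1.19 in the other barcodes. FCGR3A, a receptor for IgG, stood at 4.14, 4.23 and 4.91 in HLS and 7.05, 3.36 and 7.98 in LLS ewes, and TLR2, a receptor for bacterial lipoproteins, at 1.05, 5.72 and 5.36 in HLS and 2.47, 3.03 and 3.64 in LLS ewes. Over the 18 receptors tested, 0 lay above and 1 (CLEC4A, a lectin of myeloid cells) lay below in all HLS ewes.

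Genes of the oxidative burst and its defence summed to 43.3, 44.6 and 38.8 in HLS and 39.4, 37.3 and 36.7 in LLS ewes against 14.0. CYBB, the catalytic subunit of the phagocyte oxidase, stood at 6.08, 9.63 and 6.10 in HLS and 7.95, 4.16 and 4.15 in LLS ewes against 0.0599 in the other barcodes, and GPX1, a peroxidase that removes hydrogen peroxide, at 14.4 ± 1.66 (SD, n = 6). GPX4, the peroxidase that repairs oxidised lipid, stood at 6.37, 3.41 and 4.002 in HLS and 2.09, 2.88 and 2.26 in LLS ewes, each HLS ewe above each LLS ewe, with a log2 fold change of 1.02 (SE 0.350, adjusted p = 0.502). Of 12 genes tested, 2 (GPX4 and SOD1, a superoxide dismutase) lay above and 1 (NCF1, a subunit of the phagocyte oxidase) below in all HLS ewes, and none passed the adjusted threshold.

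Inflammatory genes differed widely between ewes. They summed to 27.3, 64.9 and 81.9 in HLS and 50.9, 145 and 132 in LLS ewes, with HLS replicate 1 the lowest and LLS replicates 2 and 3 the highest, against 11.99 in the other barcodes. CXCL8, which draws neutrophils, led at 13.3, 38.7 and 50.3 in HLS and 23.6, 91.6 and 95.01 in LLS ewes, and IL1A and IL1B, the interleukin 1 ligands, stood at 0.966, 2.21 and 3.75 in HLS and 0.848, 7.03 and 3.24 in LLS ewes and at 0.0847, 0.913 and 1.12 in HLS and 0.210, 2.60 and 2.30 in LLS ewes. IL1RN, their receptor antagonist, stood at 2.12, 2.66 and 6.21 in HLS and 4.16, 5.95 and 3.39 in LLS ewes. TNF, the tumour necrosis factor, stood at 0.220, 0.411 and 0.458 in HLS and 0.504, 1.15 and 0.729 in LLS ewes, where each HLS ewe lay below each LLS ewe, and IL10, an anti-inflammatory cytokine, at 0.288, 0.411 and 0.683 in HLS and 1.42, 0.672 and 0.911 in LLS ewes. PTGS2, the enzyme that starts prostaglandin synthesis, stood at 0.678, 0.639 and 0.830 in HLS and 1.19, 1.36 and 1.93 in LLS ewes, with each HLS ewe below each LLS ewe at a log2 fold change of -0.98 (SE 0.297, adjusted p = 0.445). Of 15 genes tested, 5 (TNF, IL18, PTGS2, NFKBIZ and TNFSF13B) lay below in all HLS ewes and 0 above, the median log2 fold change was -0.86, and none passed the threshold. In the other barcodes the same genes summed to a mean of 9.52 in HLS and 14.5 in LLS ewes.

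Genes induced by interferon summed to 6.98, 10.5 and 12.7 in HLS and 12.3, 44.2 and 13.7 in LLS ewes, so that LLS replicate 2 stood apart, against means of 7.65 in HLS and 11.5 in LLS ewes in the other barcodes, where each HLS ewe lay below each LLS ewe. IFI6, the most abundant of them, stood at 1.32, 2.72 and 4.31 in HLS and 2.39, 13.02 and 3.50 in LLS ewes, and MX1, an antiviral GTPase, at 0.542, 0.487 and 0.620 in HLS and 0.227, 6.12 and 0.547 in LLS ewes. All HLS ewes lay below all LLS ewes in 6 of 19 genes tested and above them in 0, 0 passed the adjusted threshold, and the median log2 fold change was -1.18. RSAD2, the antiviral enzyme viperin, stood at 0.0678, 0.213 and 0.248 in HLS and 0.269, 1.88 and 0.437 in LLS ewes and IFI44L at 0.0678, 0.152 and 0.264 in HLS and 0.369, 0.638 and 0.364 in LLS ewes, with LLS values above HLS values also in LLS replicates 1 and 3.

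Immediate early and heat shock genes, which cells switch on within minutes of a stimulus and also while tissue is digested, summed to 207, 182 and 152 in HLS and 292, 250.0 and 216 in LLS ewes, against 182 in the other barcodes. FOS, a part of the transcription factor AP-1, stood at 17.5, 18.3 and 18.1 in HLS and 45.4, 31.5 and 31.3 in LLS ewes, with little spread within HLS and every HLS ewe below every LLS ewe, and its log2 fold change was -0.95 (SE 0.292, adjusted p = 0.445). DUSP1, a phosphatase that ends kinase signals, stood at 6.76, 6.03 and 4.27 in HLS and 14.2, 7.57 and 8.75 in LLS ewes, and HSPA6, a heat shock chaperone and the most abundant of the group, at 50.8, 42.3 and 12.3 in HLS and 57.9, 48.0 and 48.4 in LLS ewes. All HLS ewes lay below all LLS ewes in 9 of 27 genes tested, and above them in 0. In the other barcodes these genes summed to a mean of 182 in HLS and 183 in LLS ewes. The part of tissue digestion in these values was not tested.

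Genes of matrix remodelling summed to 15.2, 33.7 and 31.3 in HLS and 23.1, 28.9 and 34.8 in LLS ewes, below the 44.0 of the other barcodes. PLAUR, the urokinase receptor, and CD44, the main receptor for hyaluronan, stood at 1.86 ± 0.551 and 3.26 ± 1.13 (SD, n = 6) against 0.0595 and 0.155 in the others. FN1, fibronectin, was highest in HLS replicate 2 at 11.8 and MMP9, a gelatinase, in LLS replicate 1 at 2.12. The collagenases MMP1 and MMP13 and the stromelysin MMP3 were at or near 0.

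Of secreted growth factors, IGF1, insulin-like growth factor 1, stood at 1.02, 2.56 and 1.92 in HLS and 1.29, 1.97 and 1.97 in LLS ewes against 0.769 in the other barcodes and 0.244 in other myeloid barcodes. VEGFA, which drives the growth of vessels, stood at 0.186, 1.19 and 1.95 in HLS and 0.806, 2.17 and 1.93 in LLS ewes, and HBEGF, an epidermal growth factor ligand, at 0.559, 2.12 and 2.08 in HLS and 2.49, 2.72 and 2.08 in LLS ewes. PDGFB, a growth factor for pericytes, stood at 0.559, 0.746 and 0.458 in HLS and 1.31, 1.09 and 0.911 in LLS ewes, each HLS ewe below each LLS ewe. In this group 4 of 14 genes tested lay below in all HLS ewes and 1 above, and none passed the test.

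Receptors for the sex steroids and gonadotrophins were at or near 0 in macrophages. ESR1 and ESR2, the oestrogen receptors, stood at means of 0.0818 ± 0.0402 and 0.0104 ± 0.0185, PGR, the progesterone receptor, at 0.0152 ± 0.0147, and LHCGR and FSHR, the receptors for luteinizing and follicle stimulating hormone, at 0.0788 ± 0.127 and 0.00129 ± 0.00317 (SD, n = 6). NR3C1, the glucocorticoid receptor, stood at 0.339, 1.23 and 1.11 in HLS and 1.07, 1.21 and 0.656 in LLS ewes. PTGER4 and PTGER2, receptors for prostaglandin E2, stood at 1.254, 1.54 and 1.23 in HLS and 2.38, 1.87 and 1.93 in LLS ewes and at 0.136, 0.167 and 0.233 in HLS and 0.344, 0.353 and 0.510 in LLS ewes, against 0.109 and 0.0316 in the other barcodes, and in both each HLS ewe lay below each LLS ewe, at log2 fold changes of -0.58 (SE 0.255, adjusted p = 0.614) and -1.02 (SE 0.346, adjusted p = 0.491).

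A further fit asked whether the HLS to LLS difference in macrophages departed from that in the other barcodes of the same ewes. Of 16757 genes tested with edgeR's quasi-likelihood test, the ewe as a block and Benjamini-Hochberg adjustment, 15 (0.0895%) had a more positive difference in macrophages, and 0 a more negative one. At an unadjusted p under 0.05 these were 460 (2.75%) and 302 genes (1.8%), and DESeq2 called 3 and 0. Of the genes called, FABP4 had the largest difference, 7.37 (SE 0.661, adjusted p = 6.97e-08) on the log2 scale. FABP5 followed its direction at 1.95 (SE 0.373, adjusted p = 0.0219), with means of 31.3 and 12.8 in HLS and LLS macrophages and of 0.619 and 0.928 in the other barcodes. AP1S1, which stood higher in the cells with FABP4 as given above, differed by 2.32 (SE 0.391, adjusted p = 0.00723) and CTSD by 1.75 (SE 0.358, adjusted p = 0.0402). ACTA2 differed by 1.84 (SE 0.346, adjusted p = 0.0185), and its UMI lay mostly in single cells, as given above, where its HLS to LLS difference shrank without called doublets.

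ALG9, a mannosyltransferase of protein glycosylation, differed by 3.67 (SE 0.648, adjusted p = 0.00888), with macrophage levels of 1.02, 1.05 and 0.225 in HLS and 0.0252, 0.0570 and 0.109 in LLS ewes. In HLS ewes the 33 cells with FABP4 held ALG9 at 1.98, 2.81 and 0.382, against 0.0675, 0.0710 and 0.180 in the other HLS macrophages. With the cell of the most FABP4 in each ewe left out, the former stood at 0.814, 0.520 and 0.308, and after thinning 3.03% of the 33 cells held ALG9. S100A8, a calcium-binding protein of neutrophils and monocytes, differed by 3.53 (SE 0.736, adjusted p = 0.0485), with macrophage levels of 3.78, 3.33 and 0.993 in HLS and 0.0840, 0.285 and 0.547 in LLS ewes. RRAS2, a small GTPase, differed by 2.79 (SE 0.548, adjusted p = 0.0278), TST, a mitochondrial sulphur transferase, by 4.26 (SE 0.726, adjusted p = 0.00723), and GUCY1B1, a subunit of the nitric oxide receptor, by 3.98 (SE 0.804, adjusted p = 0.0371). In these genes all HLS ewes lay above all LLS ewes within macrophages, although TST stood at no more than 0.373 and GUCY1B1 at no more than 0.122 per 10000 UMI in any ewe. EHF and RARRES1 were called for another pattern. EHF, a transcription factor of epithelium, stood at means of 0.0959 and 0.0998 in HLS and LLS macrophages and of 0.00519 and 0.105 in the others, and RARRES1, a retinoic acid responsive gene, at 3.56 and 5.25 against 0.136 and 1.32. The other barcodes held more of both genes in LLS than in HLS ewes, and macrophages held more RARRES1 there as well. With DESeq2 AP1S1, ALG9, TST, RRAS2, RARRES1, FABP5, GUCY1B1 and S100A8 all lost their calls. Their DESeq2 adjusted p ran from 0.0665 for TST and AP1S1 to 0.575 for FABP5 and 0.611 for S100A8. DESeq2 called 3 genes in all, FABP4 and EHF among them, so ACTA2 and CTSD did not both keep their calls. GUCY1B1 and S100A8 also lost their calls with a C1q limit of 3 UMI, and S100A8 without TMM factors. The number of calls was unstable to the ewes used, from 31 without LLS replicate 3 to 108 without HLS replicate 3, with 53 to 100 without each of the others.

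Macrophages within an ewe were not uniform, and they were split by endocytic receptors. After thinning of each cell to 1000 UMI, 175 macrophages held at least 1 UMI of FOLR2, LYVE1 or MRC1 (MRC1 being the mannose receptor) and 346 held none. The ewes gave 14, 23 and 43 in HLS and 46, 37 and 12 in LLS ewes of the positive and 21, 40 and 64 in HLS and 115, 77 and 29 in LLS ewes of the negative kind, so receptor-positive cells were found in all 6. A cell without a UMI after thinning may still make the gene. Before thinning, the median depth of positive cells was 17197, 10477 and 16875 in HLS and 7235, 7764 and 7310 in LLS ewes and that of negative cells 8156, 6754 and 6994 in HLS and 6505, 6623 and 5103 in LLS ewes. UMI of both kinds were summed per ewe and tested by edgeR's quasi-likelihood test with the ewe as a block and Benjamini-Hochberg adjustment, leaving out the genes of the rule and of the split. Of 4385 genes tested, 38 (0.867%) were higher and 18 (0.41%) lower in positive macrophages. Without HLS replicate 3 the count was 31 in all in place of 56. The median log2 fold change over all genes was 0.0028.

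Some genes of uptake and of resident macrophages were higher in positive cells. STAB1, a scavenger receptor that clears hyaluronan and modified lipoprotein, stood at 0.722, 1.62, 1.12, 1.59, 1.35 and 0.795 in positive cells of HLS replicates 1 to 3 and LLS replicates 1 to 3, and at 0.319, 0.402, 0.514, 0.919, 0.282 and 0.115 in negative cells. Its log2 fold change was 1.47 (SE 0.220, adjusted p = 0.00199), and the difference had 1 sign in all 6 ewes. DAB2, an adaptor of clathrin-mediated uptake, stood at 4.84 ± 2.03 in positive and 2.11 ± 0.781 in negative macrophages (SD, n = 6 ewes), with 1.18 (SE 0.126, adjusted p = 2.24e-04), and EPS15, another adaptor of endocytosis, at 2.06 ± 0.371 in positive and 1.09 ± 0.415 in negative macrophages, with 0.92 (SE 0.150, adjusted p = 0.00418). F13A1, the transglutaminase subunit of clotting factor XIII, stood at 2.25 ± 1.07 in positive and 1.01 ± 0.474 in negative macrophages, with 1.12 (SE 0.151, adjusted p = 8.31e-04). MAF, a transcription factor of tissue macrophages, stood at 3.44 ± 1.505 in positive and 1.41 ± 0.851 in negative macrophages, with 1.34 (SE 0.189, adjusted p = 0.00112). Of 8 scavenger and resident genes tested, 3 (STAB1, F13A1 and SELENOP) were called higher and 0 lower, and their median log2 fold change was 0.84. Over all genes tested in the split, the shares were 0.867% higher and 0.41% lower, and the median was 0.0028.

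SLC40A1, the iron exporter, stood at 1.88, 1.58, 2.41, 2.52, 3.47 and 1.29 in positive and 0.958, 0.402, 0.642, 1.04, 1.24 and 0.748 in negative cells in the same order of ewes. It was higher in positive cells of every ewe, by 1.46 (SE 0.169, adjusted p = 2.74e-04) on the log2 scale. GPX3, a secreted peroxidase, and CTSK, a cathepsin that degrades collagen, differed by 1.75 (SE 0.266, adjusted p = 0.00220) and 1.51 (SE 0.239, adjusted p = 0.00307). IGF1 stood at 2.56 ± 0.865 in positive and 1.29 ± 0.405 in negative macrophages, with 0.98 (SE 0.177, adjusted p = 0.00888), and CCL24, a chemokine for eosinophils, at 1.06 ± 1.21 in positive and 0.309 ± 0.409 in negative macrophages, with 1.73 (SE 0.309, adjusted p = 0.00861). CCL24 was carried mainly by HLS replicate 3 and LLS replicate 3, whose macrophages held 1.54 and 1.49 against at most 0.259 in the others. SCIN, an actin-severing protein, and SLCO2B1, a transporter of organic anions, differed by 1.10 (SE 0.193, adjusted p = 0.00666) and 0.89 (SE 0.168, adjusted p = 0.0118). Of 22 lysosomal genes tested, 3 (CTSK, CTSC and HEXA, a subunit of beta-hexosaminidase) were called higher and 0 lower. Over all genes tested in the split, 0.867% were called higher and 0.41% lower. CD74 stood at 55.7 ± 25.4 in positive and 57.4 ± 22.2 in negative macrophages, a log2 difference of -0.07 (SE 0.109, adjusted p = 0.861).

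**Figure D5:**
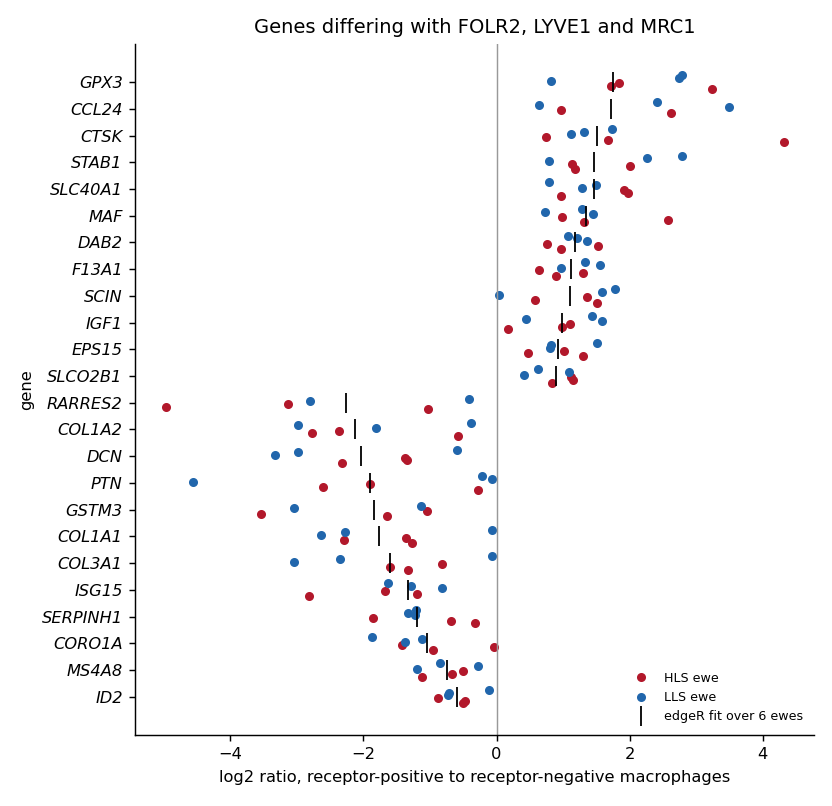
Log2 ratio of the level in receptor-positive to that in receptor-negative macrophages for the 24 named genes, with a point per ewe and a bar for the fit over the 6 ewes. The 12 genes at the top lie above 0 and the 12 at the bottom below 0 in every ewe with a value, which was a condition for naming them.

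Of the 12 named genes that were lower in positive macrophages, RARRES2 (the chemokine chemerin), COL1A2, COL1A1 and COL3A1 (chains of fibrillar collagens), DCN (the proteoglycan decorin), PTN (the growth factor pleiotrophin), GSTM3 (a glutathione transferase) and SERPINH1 (a collagen chaperone) are made by stromal cells. COL1A2 stood at 0.465 ± 0.190 in positive and 2.08 ± 1.73 in negative macrophages, with -2.12 (SE 0.260, adjusted p = 3.71e-04), and DCN at 0.568 ± 0.476 in positive and 2.23 ± 1.55 in negative macrophages, with -2.03 (SE 0.263, adjusted p = 5.78e-04). The stromal gene group summed to 2.06, 1.97 and 6.96 in positive cells of HLS ewes and 5.81, 8.12 and 18.6 in negative cells. In LLS ewes the sums were 1.87, 4.95 and 2.78, and 12.9, 20.2 and 3.17. Stromal RNA was thus lower in positive cells of every ewe.

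The other 4 named lower genes were of several kinds. CORO1A, an actin-binding protein of leukocytes, stood at 0.842 ± 0.407 in positive and 1.77 ± 0.646 in negative macrophages, with -1.05 (SE 0.192, adjusted p = 0.00983), and MS4A8, a tetraspan membrane protein, at 1.03 ± 0.321 in positive and 1.79 ± 0.761 in negative macrophages, with -0.74 (SE 0.160, adjusted p = 0.0303). MS4A8 was called in 9 of 18 alternatives and CORO1A in 15 of 18, and of the stromal genes PTN was called in 9 of 16. ID2, an inhibitor of helix-loop-helix factors, differed by -0.60 (SE 0.120, adjusted p = 0.0192). ISG15, a ubiquitin-like protein induced by interferon, differed by -1.34 (SE 0.195, adjusted p = 0.00157), and LLS replicate 2 held most of it, at 6.18 against at most 1.10 in the others.

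The split was repeated without macrophages that held a stromal UMI after thinning, an alternative chosen after seeing the data. LLS replicate 3 then had too few positive cells and dropped out, and 23 genes were called in place of 56. Of the 12 named higher genes 11 were tested and 7 were called, SLC40A1 at 1.51 and DAB2 at 1.36 on the log2 scale among them. MAF, SCIN and SLCO2B1 were not called but stood at 1.41, 1.20 and 0.88, while F13A1 stood at 0.61. Of the 12 named lower genes 8 were tested and 1, ID2, was called, at -0.65. CORO1A at -0.98 and MS4A8 at -0.81 were not called and were about as large as with all cells. The collagens and DCN are among the genes by which cells were removed, so their smaller differences (COL1A2 at 0.23) follow from the removal and are no test. SERPINH1, by which no cell was removed, stood at -0.12 against -1.19 with all cells. In the HLS to LLS comparison the same removal left FABP4 as the 1 gene called.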

How the data were processed

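Ovaries of 6 ewes gave 1 library each (Chromium 3′ v3). Reads were mapped by the authors (Cell Ranger, STAR), and the deposited files hold raw UMI counts by gene and barcode, taken unchanged. The reference build and annotation behind the counts are not given in the sources used here, and no coordinates are printed. The median depth was 10765, 7239 and 11139 UMI per macrophage in HLS and 6987, 7264 and 5712 in LLS ewes, which limits genes with few UMI.

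UMI were summed per ewe over the barcodes of each set (4879036 UMI of macrophages in all), filtered with filterByExpr, given TMM factors and fitted in edgeR 4.0.16 (R 4.3.3, glmQLFit and glmQLFTest). Benjamini-Hochberg adjusted p values were called at 0.05. The study tested cells as replicates, which was not followed. The split used FOLR2, LYVE1 and MRC1, since CD163, which the design also named, was not found among the gene names. Doublets were called per ewe from 2 simulated doublets per barcode (30 components, 30 neighbours) and removed only in an alternative. Python 3.11.15 was used with numpy 2.4.6, scipy 1.17.1 and scikit-learn 1.9.0, and DESeq2 1.42.0 as an alternative. On simulated data, 200 genes were changed in each fit. Of genes changed 2-fold and 4-fold, 10% and 75% were recovered between groups (7262 genes), 3% and 43% for the difference between macrophages and other barcodes (16757 genes), and 83% and 100% in the split (4385 genes), with 1, 8 and 8 false calls.

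The members of the macrophage set and the 35 gene lists (541 genes written, 469 features found, 15 of them by gene ID through the RefSeq table of ARS-UI_Ramb_v3.0) were chosen with earlier results of these data known. The text names genes of these lists, up to 10 called genes in each direction between groups (where fewer than 5 passed, the 5 lowest p in each direction), the 12 largest called rises and falls of the split with the same sign in every ewe and a mean CPM of at least 50, and the 20 largest ratios to other barcodes. Features named only by a locus number were left out of the last 3. Genes named outside these rules were chosen after their values were seen. Nothing in the labels says that replicate numbers pair ewes. Levels were UMI per 10000 UMI, from 3′ tags. Where a gene is called the most abundant of a group or said to lead it, only these levels were ranked. No test compared genes with each other. A difference between ewes includes their 1 library each. Alternatives were other limits on UMI, mitochondrial share and C1q, doublets removed, thinning, no filter, no TMM factors, DESeq2, a block and each ewe left out. The labels name no batch. Some genes are not reported here.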

Additional observations from a re-analysis of the deposited data

Results flagged for a closer look

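Groups of 3 ewes were not screened for single outlying ewes. In 12 genes with a name the HLS to LLS difference in macrophages departed from that in the other barcodes of the same ewes, by edgeR's quasi-likelihood test of the difference. On the log2 scale it was 7.37 for FABP4, 4.36 for EHF, 4.26 for TST, 3.98 for GUCY1B1, 3.67 for ALG9, 3.53 for S100A8, 2.79 for RRAS2, 2.46 for RARRES1, 2.32 for AP1S1, 1.95 for FABP5, 1.84 for ACTA2 and 1.75 for CTSD. In FABP4 a single cell held 83.3, 81.3 and 30.2% of the UMI of the HLS ewes. S100A8, a gene of neutrophils and monocytes, was concentrated as well, with 66.4, 12.8 and 34.4% of its UMI in 1 cell of the HLS ewes. The 7 measured genes of monocytes and neutrophils, S100A9 the most abundant, summed to 16.8, 11.2 and 5.14 in HLS and 2.29, 5.16 and 6.45 in LLS ewes, with CSF3R, the receptor of a neutrophil growth factor, at no more than 0.0364 in any ewe. In the test of the difference 4 of the 7 were more positive in macrophages at an unadjusted p under 0.05 and 1, S100A8, was called. Over all 16757 genes tested these shares were 2.75% and 0.0895%. The part of monocytes and neutrophils in the S100A8 value was not tested.

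Among barcodes outside the limits on UMI or mitochondrial share, which no comparison used, 55 met the rest of the macrophage rule.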

How the results depend on the processing

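The share of macrophages kept its sign under every alternative run, and its exact test, with a smallest p of 0.1, could not pass 0.05 in any. Between groups, 1 gene was called, and the count was 24 with DESeq2, 155 with no filter on low counts, 4 without called doublets, 3 without the macrophage with the most FABP4 UMI of each ewe (chosen after seeing the data) and 0 to 6 with each ewe left out. With no filter 17490 genes were tested, many of them with few UMI. At an unadjusted p under 0.05 there were 535, 476 and 539 genes in the fits without HLS replicate 1, LLS replicate 1 and LLS replicate 3, which called 0. For the difference between macrophages and other barcodes, 15 genes were called, and 3 with DESeq2, 57 with no filter and 31 to 108 with each ewe left out. For the split, 56 genes were called, and 175 with no filter, 94 when it read all UMI of a cell and 36 without called doublets. The count was 36 with positive cells at 2 UMI or more and 23 without cells with a stromal UMI (chosen after seeing the data). It was 11 of 531 genes tested after thinning, and 31 to 48 with each ewe left out. Ewes with under 10 cells of either kind dropped out of a fit. When the split read all UMI, this removed HLS replicate 1, with 9 negative cells. At 2 UMI or more it removed HLS replicates 1 and 2 and LLS replicate 3, with 5, 8 and 5 positive cells. COL1A2 went to 0.23 without cells with a stromal UMI, a removal that reads this gene, and SERPINH1 to 0.036 when the split read all UMI, where the cause was not tested. Calls of named genes were lost with their direction kept in 3 of 18 values for FABP4 between groups. For the difference this held in 11 of 140 values, which cover 10 genes and leave out ACTA2 and CTSD. For the split it held in 82 of 419, where the 2 values above changed sign. Between groups 21 values of the other named genes gained a call.

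The labels do not say whether replicate numbers pair the ewes, and correlations over 3 ewes a group cannot settle it. Same-numbered ewes correlated at -0.0236, -0.0718 and 0.0245 in their deviations from the group means, and ewes with unlike numbers at -0.133 to 0.156. With the replicate block 6 genes were called between groups, 1 of them shared with the fit without it. Without the ewe block the split called 0 genes by edgeR, with 165 at an unadjusted p under 0.05 against 502 with it. Depth limits genes with few UMI, and 3 ewes a group recovered 10% of genes changed 2-fold.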

Other observations

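Few macrophages held RNA of dividing cells. Taking at least 3 UMI of MKI67 and TOP2A together, genes of the cell cycle, 18 macrophages met this, of which 11 came from HLS and 7 from LLS ewes. By ewe there were 2, 7 and 2 in HLS and 5, 2 and 0 in LLS, where 0 of 41 cells allows a share of cells with this count of up to 7.32%. The count depends on depth, as these cells had a median of 34237.5, 11703 and 20871.5 UMI in HLS ewes and of 10679 and 11395.5 in LLS replicates 1 and 2, above the medians of all macrophages. Cell cycle genes summed to 8.83, 8.92 and 2.64 in HLS and 7.03, 2.77 and 1.75 in LLS ewes in macrophages. The other barcodes summed to a mean of 11.5. They lay above the macrophages of the same ewe except in HLS replicate 1, where they summed to 6.99.

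Single cells carried much of some macrophage genes. SPP1, the matrix protein osteopontin, stood at 1.44, 1.69 and 3.68 in HLS and 24.1, 10.5 and 0.146 in LLS ewes, and the highest cell held 57.6, 41.4 and 57.1% of its UMI in HLS and 26.2, 24.9 and 50% in LLS ewes. CTSL, the lysosomal protease cathepsin L, stood at 4.59, 4.35 and 8.17 in HLS and 1.52, 7.77 and 9.66 in LLS ewes, with 48.3, 37.1 and 20.2% and 99.4, 40.8 and 66.8% in the highest cell. GPNMB stood at 6.31, 1.42 and 12.5 in HLS and 2.42, 6.34 and 3.24 in LLS ewes, with 19.6, 26.9 and 12.7% and 45.1, 16.5 and 65.2%.

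Chemokines other than CXCL8 and their receptors summed to 6.37, 10.7 and 14.5 in HLS and 7.08, 13.3 and 12.1 in LLS ewes, led by CXCL16, a membrane-bound chemokine, at 3.90, 5.28 and 9.34 in HLS and 2.99, 6.06 and 4.96 in LLS ewes. Genes for the uptake of dying cells summed to 7.0002, 12.4 and 13.2 in HLS and 10.7, 9.73 and 9.51 in LLS ewes, led by ABCA1, the cholesterol exporter, at 0.864, 2.82 and 3.58 in HLS and 1.53, 1.52 and 2.005 in LLS ewes. Genes of colony stimulating factors, interleukin 34 and their receptors other than CSF1R summed to 1.58, 3.09 and 4.22 in HLS and 3.795, 4.02 and 4.92 in LLS ewes. Monocyte and neutrophil genes summed to 16.8, 11.2 and 5.14 in HLS and 2.29, 5.16 and 6.45 in LLS ewes, with HLS replicate 1 the highest, and dendritic cell genes to 2.02, 1.96 and 2.66 in HLS and 4.86, 2.59 and 2.41 in LLS ewes. STAR, which carries cholesterol into mitochondria of steroid-making cells, stood at 0.407, 0.913 and 1.63 in HLS and 0.269, 0.821 and 1.06 in LLS ewes in macrophages against 0.0286 in the other barcodes, while CYP17A1 and CYP11A1, steroid enzymes, stood at 0.0116 ± 0.0218 and 0.0781 ± 0.102 (SD, n = 6). Genes of NK cells, mast cells, lymphatic endothelium, epithelium, Schwann cells and red blood cells each summed to no more than 1.34 in any ewe. NK cell genes had a mean of 0.636 against 0.504 in the other barcodes, while the means of the rest lay below the other barcodes.

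Across the macrophages of 1 ewe, each thinned to 1000 UMI, the summed lysosomal and lipid genes correlated with a Spearman rho of 0.33 to 0.69 over the 6 ewes, lysosomal and immediate early genes of -0.61 to -0.16, and MHC class II and lipid genes of -0.45 to -0.16. These describe cells that share a library and a fixed total, in which the sums compete.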
